A study of Mus musculus with 6 samples.

Results

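The genes described are 8 transcription factors of the choice between granulocyte and monocyte fate, taken by symbol: Cebpa, Cebpb, Cebpd, Cebpe, Gfi1, Spi1, Irf8 and Klf4. All 8 had 1 row each among the 52550 genes listed, and all 8 were tested. Knockout (KO) mice carried floxed Ppp2ca alleles (Ppp2caf/f) together with VAV1cre, a recombinase under a promoter active throughout blood cells. Wild-type (WT) mice had the same floxed alleles, with no Cre named. Ppp2ca encodes the major catalytic subunit of the serine-threonine phosphatase PP2A. Poly(A) RNA was sequenced from bone marrow cells labelled as hematopoietic stem cells, in 3 KO and 3 WT libraries. Age and sorting markers are not given in the sources used here, and no label says whether each library is a separate animal. The p-values therefore refer to the spread among these 6 samples, which may be technical.

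Blood progenitors settle on a fate through factors that act against each other. C/EBP alpha and the ETS factor PU.1 open the myeloid programme. C/EBP epsilon and the repressor GFI1 then drive granulocyte maturation, whereas IRF8 and KLF4 drive monocyte and dendritic cell fate. IRF8 binds DNA together with PU.1 and restrains neutrophil production, and GFI1 represses monocyte genes.

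Values are normalised read counts, that is, reads per gene divided by a size factor of the library. The libraries held 37951985 to 58692037 reads over genes. Ppp2ca, the targeted gene, stood at 23728, 22419 and 24046 in KO libraries, against 32909, 33451 and 33169 in WT libraries, or 70.5% of the WT mean (log2 fold change −0.50 ± 0.07, adjusted p = 0.00268). The deleted exons are not given in the sources used here, so this value over the whole gene does not measure the deletion. The stem cell markers were read in both groups, but 11 of 12 fell, with a median log2 fold change of −2.14. Their summed level was 31080 to 49825 in KO libraries and 93098 to 104051 in WT libraries. Granulocyte genes were abundant in both groups: Mpo and Elane averaged 1237140 and 274903 in KO, and 954999 and 209100 in WT. In WT the stem cell markers Cd34, Kit, Procr and Slamf1 averaged 42732, 25717, 559 and 558. These levels are not divided by gene length. The share of stem cells in the libraries was not tested. No batch is named in the labels.

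In KO libraries 6 of the 8 factors rose and 1 fell. All 4 C/EBP genes, Gfi1 and Spi1 rose by 0.55 to 1.01 on the log2 scale, Irf8 fell to 47.9% of its WT level, and Klf4 did not pass the test. Over all 20136 genes tested, 23.3% passed the same test (limma, p adjusted by Benjamini-Hochberg, threshold 0.05). Of all genes, 10.3% (2069) were higher and 13% (2622) were lower in KO. Those counts were 993 and 1714 without KO replicate 3, and 1565, 1639 and 1602 genes were lower without WT replicates 1, 2 and 3. The KO and WT ranges did not overlap for 7 of the 8 factors, as for 40.9% of all genes tested. The median log2 fold change was 0.67 over the 8 factors and −0.02 over all genes. The shifts were of middling size: between 57.0% and 77.4% of all genes tested had a smaller absolute change than each of the 7. In bulk samples, fewer cells of a type and less RNA per cell cannot be told apart, and for each factor this choice was not tested.

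**Figure D1:**
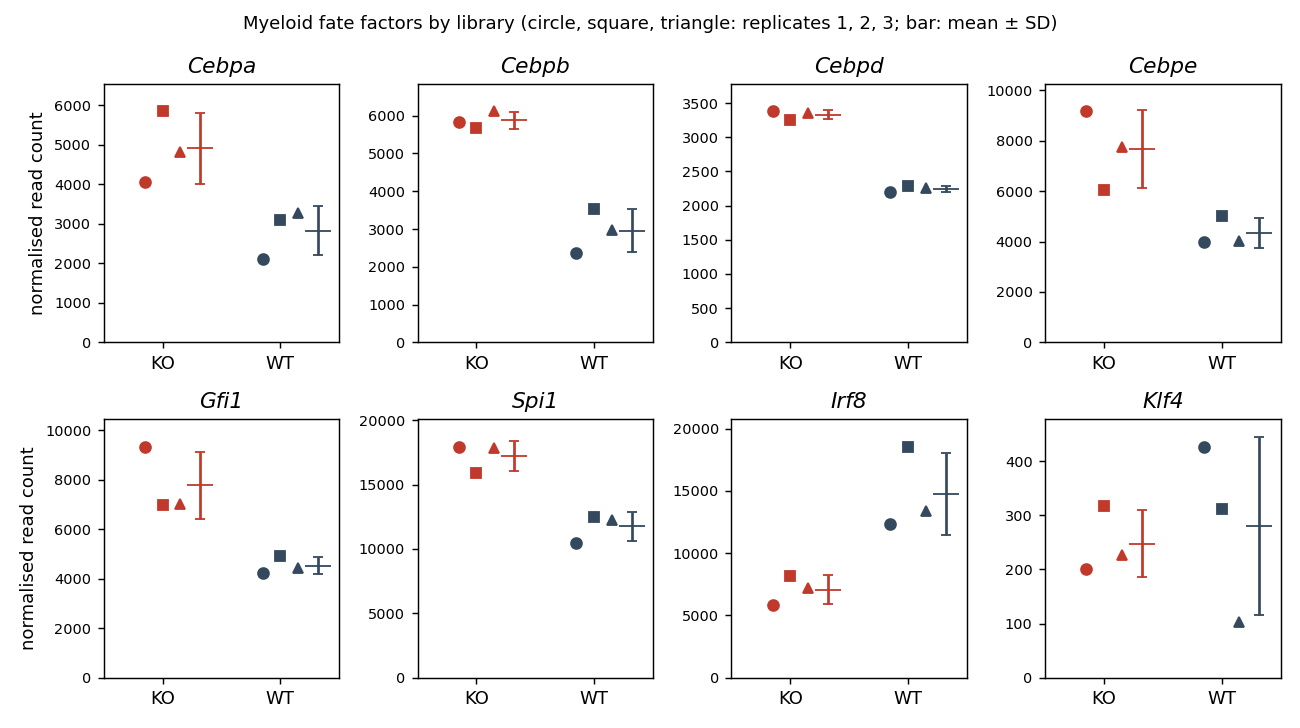
Normalised read counts (vertical axis, from 0) of the 8 factors in the 3 KO libraries (red) and the 3 WT libraries (dark blue), with the mean and SD of each group beside the points. Except in Klf4, every KO point lies outside the range of the WT points, below it in Irf8 and above it in the other factors.

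Cebpa encodes C/EBP alpha, without which granulocyte-monocyte progenitors do not form (ENSMUSG00000034957.10, GRCm38 chromosome 7, 35119293 to 35121928). It had 4053, 5844 and 4820 normalised reads in KO libraries, against 2104, 3106 and 3260 in WT libraries. The lowest KO library lay above the highest WT library, though both groups were spread widely, with KO replicate 2 and WT replicate 3 on top. The means were 4906 ± 899 in KO and 2823 ± 627 in WT (SD, n = 3 each), a log2 fold change of 0.81 ± 0.20 (SE, limma adjusted p = 0.0228). This was the least secure of the 7 calls: the adjusted p was 0.0867 in the fit with no intensity trend, 0.0536 without KO replicate 2 and 0.0693 without KO replicate 3. Gm45091, an antisense transcript that shares 51 exon bases with Cebpa, averaged 36.7 in KO and 24.6 in WT (adjusted p = 0.407).

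Cebpb encodes C/EBP beta, the member used when infection or cytokines call for extra granulocytes (ENSMUSG00000056501.3, chromosome 2, 167688915 to 167690418). Its values were 5841, 5671 and 6117 in KO libraries, against 2376, 3517 and 2984 in WT libraries. The KO libraries sat close together and far above all WT libraries, which differed more among themselves. With means of 5876 ± 225 in KO and 2959 ± 571 in WT, Cebpb had the largest rise of the 8 factors (log2 fold change 1.01 ± 0.14, adjusted p = 0.00304). Cebpb shares 312 exon bases with Tmem189 on the opposite strand, and strand is not given for these libraries, so some of these reads are uncertain. Tmem189 averaged 4039 ± 55.8 in KO and 3126 ± 489 in WT and did not pass (log2 fold change 0.38, adjusted p = 0.0642).

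Cebpd encodes C/EBP delta, a factor induced by inflammatory cytokines (ENSMUSG00000071637.5, chromosome 16, 15887286 to 15891031). It was read at 3378, 3258 and 3351 in KO libraries, against 2201, 2284 and 2256 in WT libraries. Replicates were tighter here than for any other of the 8 factors in either group, and the groups were well apart. The log2 fold change was 0.57 ± 0.08 (adjusted p = 0.00363). On the opposite strand, Spidr shares 562 exon bases with Cebpd and is read at a similar level, so part of the Cebpd reads is uncertain as well. Spidr averaged 3778 ± 973 in KO and 4496 ± 289 in WT, which did not pass the test (−0.28, adjusted p = 0.304).

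Cebpe encodes C/EBP epsilon, which switches on the secondary granule genes of maturing granulocytes (ENSMUSG00000052435.6, chromosome 14, 54710363 to 54712174). Values of 9170, 6060 and 7767 in KO libraries stood against 3978, 5023 and 4009 in WT libraries. KO replicate 1 was highest and KO replicate 2 lowest of the KO libraries, and even KO replicate 2 exceeded WT replicate 2, the highest WT library. The means were 7666 ± 1557 in KO and 4337 ± 595 in WT (log2 fold change 0.81 ± 0.16, adjusted p = 0.0118), and the adjusted p was 0.0598 without the intensity trend.

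Gfi1 encodes a zinc finger repressor needed for neutrophil production (ENSMUSG00000029275.18, chromosome 5, 107716657 to 107726036). It had 9340, 6969 and 7028 normalised reads in KO libraries, against 4244, 4924 and 4426 in WT libraries. KO replicate 1 stood above the other KO libraries, and no WT library reached the KO range. The log2 fold change was 0.77 ± 0.13 (adjusted p = 0.00609). A430072P03Rik, a transcript on the opposite strand that shares 101 exon bases with Gfi1, rose as well, with 178 ± 48.8 in KO and 63.2 ± 10.2 in WT (log2 fold change 1.45, adjusted p = 0.0172).

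Spi1 encodes PU.1, needed for both granulocytes and monocytes and, at high dose, favouring macrophages (ENSMUSG00000002111.8, chromosome 2, 91082390 to 91115756). Its values were 17933, 15870 and 17862 in KO libraries, against 10441, 12512 and 12281 in WT libraries. Both groups were compact and did not overlap. The log2 fold change of 0.55 ± 0.10 was the smallest of the 7 calls (adjusted p = 0.00699), with an adjusted p of 0.0517 when no intensity trend was used and a log2 fold change of 0.36 under quantile normalization.

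Irf8 encodes the partner of PU.1 in monocytes and dendritic cells (ENSMUSG00000041515.9, chromosome 8, 120736358 to 120756694) and was the factor that fell. It had 5874, 8172 and 7162 normalised reads in KO libraries, against 12332, 18545 and 13372 in WT libraries. WT replicate 2 was far above the other WT libraries, yet the highest KO library stayed below the lowest WT library. The means were 7069 ± 1152 in KO and 14750 ± 3328 in WT (log2 fold change −1.05 ± 0.18, adjusted p = 0.00571). The fit without WT replicate 2 gave −0.87, and the call held whichever library was left out. Of the dendritic cell markers, 7 of 9 fell and 0 rose, with a median log2 fold change of −2.08. This was not particular to them: stem cell (−2.14), erythroid (−2.0), megakaryocyte (−2.48) and macrophage markers (−1.99) had similar medians. Mature neutrophil markers stood at −0.02. The summed level of the dendritic cell markers was 5923 to 7008 in KO libraries and 19779 to 22382 in WT libraries. Flt3, which progenitors also express, made up 4028 to 5438 of the KO sums. Cd209a, Ly6d and Siglech were at 0 in KO replicates 1 and 3. Siglech, a marker of plasmacytoid dendritic cells, had 0, 3.93 and 0 in KO libraries and 32.8, 46.6 and 44.5 in WT libraries. Of the tested macrophage markers, 4 of 9 fell and 0 rose, with sums of 4561 to 4713 in KO libraries and 7231 to 12604 in WT libraries. Without KO replicate 1, KO replicate 3 or WT replicate 2, only 2 of the 9 fell, as Vcam1 and Cd5l lost their calls, and with library quality weights 8 fell. The part of these cells in the fall of Irf8 was not tested.

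Klf4 encodes a Krüppel-like factor of inflammatory monocytes (ENSMUSG00000003032.8, chromosome 4, 55527143 to 55532466). It was the lowest of the 8 factors, with 200.4, 317 and 226 normalised reads in KO libraries, against 427, 312 and 103 in WT libraries. The groups overlapped, since WT replicate 1 was the highest and WT replicate 3 the lowest of all 6 libraries. The log2 fold change was 0.02 ± 0.50 (adjusted p = 0.984), with −0.58 when WT replicate 3 was left out and 0.44 when WT replicate 1 was. No direction can therefore be given for Klf4, and the linear means (248 in KO and 281 in WT) differ in sign from the fit.

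**Figure D2:**
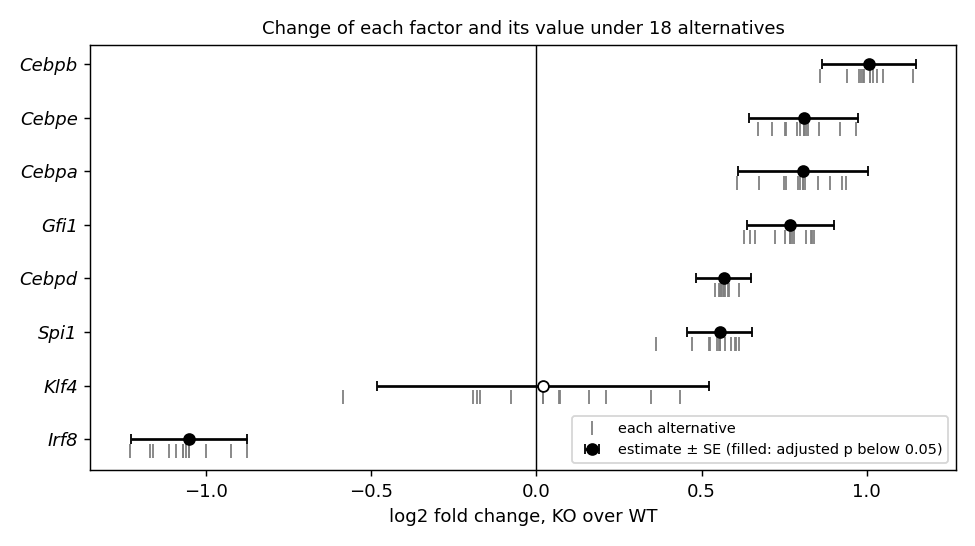
Log2 fold change of KO over WT (horizontal axis) for each factor, as the estimate with its SE (circles, filled where the adjusted p was below 0.05) and as the value under each of 18 alternatives (grey ticks). The ticks stay on one side of 0 for the 7 called factors, between −1.23 and −0.87 for Irf8, and cross 0 for Klf4.

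The sequence before the start of Irf8, the factor that fell, and of Cebpa and Cebpb, on the opposing side, is shown because the members were searched for motifs of the factors and signals that act on them. RefSeq (GRCm38.p6) gave a start for 5 of the 8 genes. Printed are the 250 bases before the start, on the strand of the gene, which is the plus strand for all 3, with capitals where a searched motif matched. The motifs, on both strands, were TTNCNNAA for C/EBP, TTCNNNGAA for the interferon-activated site bound by STAT factors, GAAA, any 2 bases and GAAA for the interferon-stimulated element, GAGGAAG for PU.1, TGACG for the cyclic AMP response element and AAATC for GFI1. In Irf8, 1 GFI1 match overlaps 1 match of the interferon-activated site.
Irf8 chr8:120736108-120736357: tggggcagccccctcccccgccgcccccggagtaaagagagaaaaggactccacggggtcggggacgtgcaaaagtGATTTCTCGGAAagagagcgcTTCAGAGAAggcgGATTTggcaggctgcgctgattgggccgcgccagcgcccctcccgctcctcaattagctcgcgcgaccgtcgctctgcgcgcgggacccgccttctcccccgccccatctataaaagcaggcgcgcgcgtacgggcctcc
Cebpa chr7:35119043-35119292: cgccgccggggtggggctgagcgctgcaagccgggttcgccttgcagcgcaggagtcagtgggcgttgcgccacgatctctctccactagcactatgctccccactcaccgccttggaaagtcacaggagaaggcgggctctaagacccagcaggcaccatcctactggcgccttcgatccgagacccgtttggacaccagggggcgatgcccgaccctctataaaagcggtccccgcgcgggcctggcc
Cebpb chr2:167688665-167688914: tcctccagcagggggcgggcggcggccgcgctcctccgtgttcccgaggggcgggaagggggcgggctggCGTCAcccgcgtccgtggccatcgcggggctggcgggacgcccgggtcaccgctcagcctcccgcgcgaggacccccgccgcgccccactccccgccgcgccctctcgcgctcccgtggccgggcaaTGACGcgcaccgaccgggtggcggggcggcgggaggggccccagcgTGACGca

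The Irf8 sequence held the interferon-activated site motif at 2 places, TTCTCGGAA from 171 to 163 bases before the start and TTCAGAGAA from 153 to 145 bases before it. At least 1 such motif was found in 7.01% of 32817 promoter sequences of the same length, and 2 or more in 0.317%. Irf8 also held the GFI1 letters at 2 places, and these letters were in 32.7% of promoters. Cebpb held the cyclic AMP response letters at 3 places, which 17.7% of promoters held at least once. None of the motifs was found in the 250 bases of Cebpa. The searched letters for C/EBP, the interferon-stimulated element and PU.1 were in 36.8%, 2.97% and 10.6% of promoters and in none of the 3 sequences shown. Of the other genes with a start, Gfi1 held 1 C/EBP match and Klf4 1 cyclic AMP match. For Gfi1 the RefSeq start lies 231 bases inside the gene span given above, and the match falls within that span. A match is a description of letters and not a site in use.

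Levels can be compared between genes only per length, as normalised reads per kilobase of exon. Length was that of the merged exons of all transcripts, which for Irf8 was 7055 bases over 7 transcripts. The order between genes depends on these lengths. On that scale the order in KO libraries was Spi1, Cebpe, Cebpb, Gfi1, Cebpa, Irf8, Cebpd and Klf4, at 6390 ± 435, 6177 ± 1255, 3907 ± 149, 2441 ± 424, 1861 ± 341, 1002 ± 163, 889 ± 16.9 and 81.3 ± 20.2 reads per kilobase (SD, n = 3). In WT libraries the order was Spi1, Cebpe, Irf8, Cebpb, Gfi1, Cebpa, Cebpd and Klf4, at 4358 ± 421, 3495 ± 479, 2091 ± 472, 1967 ± 380, 1422 ± 110, 1071 ± 238, 599.8 ± 11.2 and 92.1 ± 53.8. Irf8 was thus at rank 6 in KO and rank 3 in WT, while the other 7 kept their order among themselves. Neighbours whose ranges overlapped were Spi1 and Cebpe in both groups, Gfi1 and Cebpa as well as Irf8 and Cebpd in KO, and Irf8 and Cebpb in WT. Spi1 per kilobase exceeded 97.8% of the genes tested in KO and 96.9% in WT, whereas Irf8 exceeded 84.6% in KO and 92.7% in WT. Klf4 exceeded 48.6% in KO and 48.4% in WT.

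**Figure D3:**
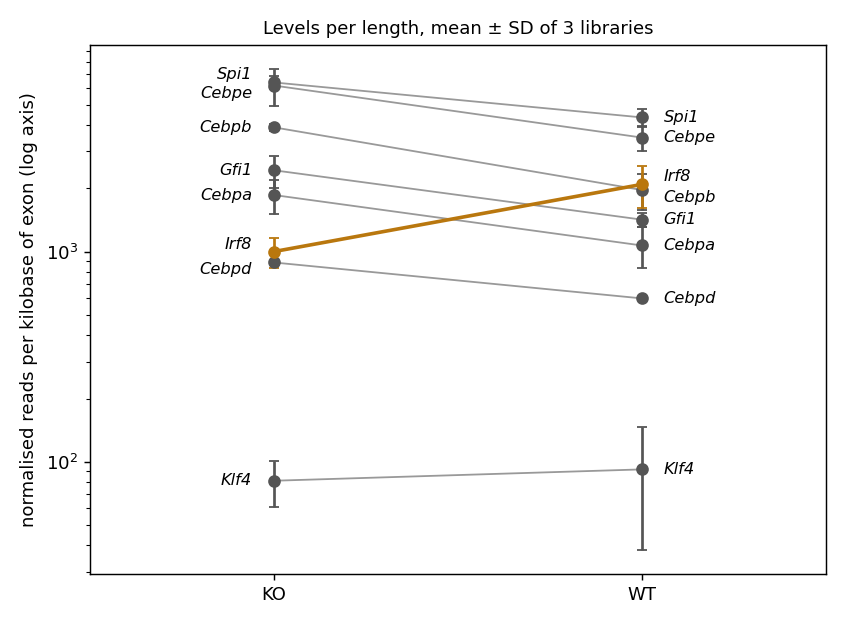
Normalised reads per kilobase of exon (vertical log axis) of the 8 factors, as mean and SD of the 3 KO libraries (left) and the 3 WT libraries (right), joined by lines. The line of Irf8 (orange) crosses those of Cebpb, Gfi1 and Cebpa, and the other lines keep their order.

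Ratios within a library do not depend on how libraries were scaled, and 9 pairs of factors were compared. The ratios with Irf8 as denominator separated the groups. Cebpa over Irf8, per kilobase, was 1.85, 1.91 and 1.80 in KO libraries, against 0.457, 0.448 and 0.652 in WT libraries. Per kilobase, Cebpa thus stood above Irf8 in every KO library and below it in every WT library. Before division by length, Cebpa was below Irf8 in every library of both groups. The position of a ratio relative to 1 therefore rests on the exon lengths used, 2636 bases for Cebpa and 7055 for Irf8. The difference between KO and WT does not. The log2 ratio was higher in KO by 1.86 ± 0.18 (SE), or 3.63-fold.

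Gfi1 over Irf8, per kilobase, was likewise above 1 in every KO library and below 1 in every WT library. It was 3.52, 1.89 and 2.17 in KO libraries, against 0.762, 0.588 and 0.733 in WT libraries. The log2 ratio was higher in KO by 1.82 ± 0.30. Cebpe over Irf8 was above 1 in both groups, at 8.87, 4.22 and 6.17 in KO libraries and 1.83, 1.54 and 1.70 in WT libraries, a log2 difference of 1.86 ± 0.32. For these 3 ratios the groups did not overlap. Each reached p = 0.1 (adjusted p = 0.3 over 9 ratios) in an exact two-sided permutation test. That is the smallest p that 3 against 3 libraries allow. The values of the single factors fixed this outcome, since each numerator was higher in every KO library than in any WT library and Irf8 was lower. The separation is therefore no further support.

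Against Spi1, which itself rose, the ratios overlapped between groups. Cebpa over Spi1 was 0.231, 0.377 and 0.276 in KO libraries and 0.206, 0.254 and 0.271 in WT libraries, with overlapping groups and a log2 difference of 0.25 ± 0.24 (exact permutation p = 0.4). That difference was 0.06 without KO replicate 2. Gfi1 over Spi1 differed by 0.21 ± 0.13 on the log2 scale (exact permutation p = 0.3), with 0.11 without KO replicate 1. Cebpb over Cebpa, the emergency against the steady-state C/EBP factor, was 2.53, 1.70 and 2.22 in KO libraries and 1.98, 1.99 and 1.61 in WT libraries (log2 difference 0.20 ± 0.20, exact permutation p = 0.4). That difference was 0.07 without KO replicate 1, 0.36 without KO replicate 2 and 0.10 without WT replicate 3. The 3 ratios to Klf4 overlapped between groups and had log2 differences of 0.75 to 0.79 with SE of 0.69 to 0.78, since Klf4 varied most among WT libraries. Without WT replicate 1 these were 0.17 to 0.32, and without WT replicate 3 they were 1.34 to 1.51.

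**Figure D4:**
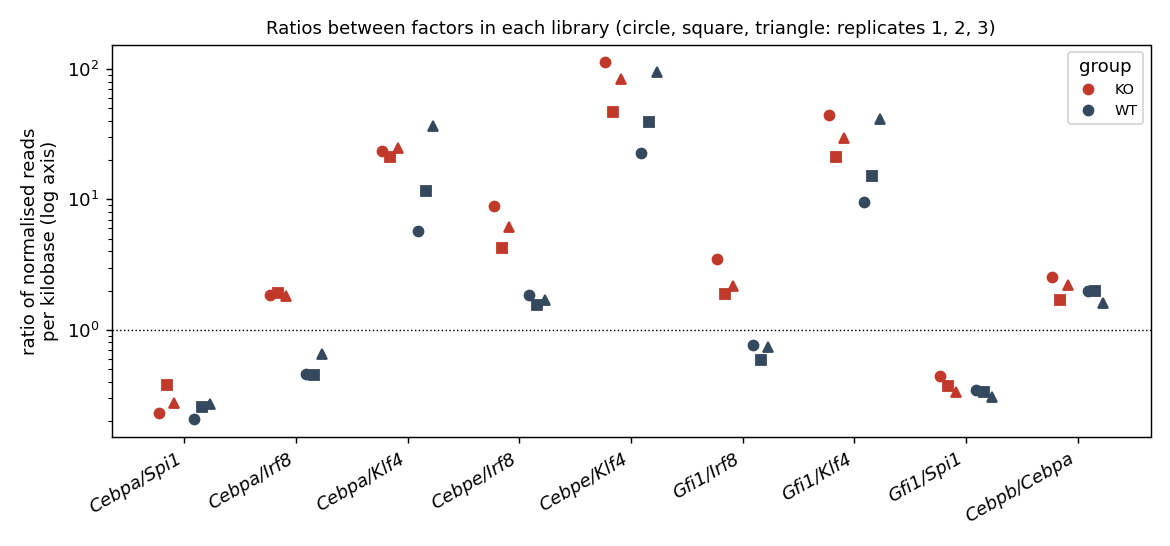
Ratio of normalised reads per kilobase between 2 factors (vertical log axis, dotted line at 1) for the 9 pairs, with 3 KO libraries (red) left of 3 WT libraries (dark blue) in each pair. Ratios to Irf8 separate the groups, with Cebpa and Gfi1 above 1 in KO and below 1 in WT, and the other 6 ratios overlap.

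Within KO libraries the order of the factors also differed. KO replicate 1 had the most Cebpe and Gfi1 and the least Irf8 and Cebpa, whereas KO replicate 2 had the most Irf8 and Cebpa and the least Cebpe and Gfi1. WT libraries showed no such contrast, as WT replicate 2 was highest in Irf8, Cebpe and Gfi1 together. For Gfi1, KO replicates 2 and 3 were close, at 6969 and 7028. Camp, Ngp, Ltf, Mmp9, S100a8 and S100a9 were also highest in KO replicate 1 and lowest in KO replicate 2, whereas Csf3r was lowest in KO replicate 1. All these orders are of 3 libraries and were not tested.

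Likeness of profile was measured over the 6 libraries as the root mean square distance between centred log2 values, over 10730 genes whose mean reached 100 or more. Irf8 lay closest to Bcl2l14 (distance 0.0512), then C1ra (0.0854) and Lag3 (0.0956). Closest to Cebpd were Chchd4 (0.017), Psmd13 and Grpel1, and closest to Spi1 were Ube2k (0.0255), Rack1 and Prpf31. Cebpa lay nearest to Chdh (0.0748), Ap2a1 and Cad, and Cebpb to Nlrx1 (0.0653), Ncl and Dctn1. For Cebpe the nearest were Dnajc25 (0.0638), Gadd45g and Psme4, and for Gfi1 they were Sptlc2 (0.0529), Asb6 and Eif2b3. The distance includes the difference between KO and WT, and each of these genes differed in the direction of its factor.

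Of 14 early hematopoietic factors, 8 fell, 1 rose and 5 did not pass, and their log2 fold changes had a median of −0.53. The count of 8 was 5 without KO replicate 3, without WT replicate 2 or with no intensity trend, since Runx1, Cbfb and Myc lost their calls in each of these. Gfi1b, the close relative of Gfi1 that serves red cells and platelets, fell to 649 ± 82.1 in KO, against 3237 ± 662 in WT (log2 fold change −2.30 ± 0.17, adjusted p = 0.000444). The erythroid factor Gata1 (−1.98), the progenitor factor Gata2 (−1.76) and the stem cell factor Meis1 (−2.07) fell too. Erythroid markers fell in 10 of 10 genes and megakaryocyte markers in 8 of 8, with sums of 9671 to 10657 and 5589 to 8175 in KO libraries, against 44459 to 52661 and 32171 to 34295 in WT libraries. The part of these cells, and of the stem cell markers that fell, was not tested. Fli1, an ETS factor, was the member that rose (0.40), a call lost without KO replicate 3 (adjusted p up to 0.0944), WT replicate 2 or WT replicate 3.

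Other genes listed as C/EBP family by symbol or as leucine zipper partners went both ways, with 2 of 11 higher, 3 lower and a median of −0.25. Nfil3, a factor of innate lymphoid and myeloid cells, rose to 208% of its WT level, with 2185 ± 335 in KO and 1049 ± 77.4 in WT. Atf4, which can pair with C/EBP factors, rose by 0.70 on the log2 scale, a call lost with no intensity trend (adjusted p = 0.0502). Hlf (−1.30) and Dbp (−1.16), relatives of each other, fell. Cebpg, Cebpz and the inhibitory partner Ddit3, named after their values were seen, did not pass (−0.31, 0.19 and −0.25, adjusted p = 0.107, 0.235 and 0.214).

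Among 13 tested monocyte and dendritic cell factors 3 fell, 0 rose (1 without KO replicate 2) and 10 did not pass, with a median of −0.45. The share that passed was near the 23.3% of all genes tested, so the count sets this list apart from no other genes. Nr4a1, a nuclear receptor of patrolling monocytes, had 399, 475 and 455 in KO libraries, against 6096, 2275 and 2650 in WT libraries. WT replicate 1 was far above the rest, and no KO library came near a WT library (log2 fold change −2.91 ± 0.34, adjusted p = 0.00162). Tcf4, which specifies plasmacytoid dendritic cells, averaged 2210 ± 248 in KO and 3852 ± 169 in WT, 57.4% of WT. Maf, a macrophage factor, fell to 10.2 ± 2.56 in KO, against 79.3 ± 21.7 in WT.

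Of 11 regulators of C/EBP protein and partners of GFI1, 1 rose, 2 fell and 8 did not pass. Their median was 0.02 (−0.11 under quantile normalization). The share that passed was near the 23.3% of all genes tested. The 3 that passed were tribbles genes. Trib2, which with the ligase COP1 sends C/EBP alpha to degradation, had 43.9, 67.8 and 65.6 normalised reads in KO libraries, against 601, 564 and 713 in WT libraries. The groups were far apart, and KO kept 9.44% of the WT level (log2 fold change −3.40 ± 0.26, adjusted p = 0.000444). Trib1, which acts likewise on C/EBP alpha, rose by 0.72 (adjusted p = 0.0497), and Trib3 fell by 1.30 on the log2 scale (adjusted p = 0.0483). Trib1 lost its call without KO replicate 2 or 3 or WT replicate 1 or 3 (adjusted p up to 0.119). Trib3 lost its call whichever library was left out except WT replicate 2 (adjusted p up to 0.143).

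Of 10 cytokine receptors around the choice, 3 rose, 2 fell and 5 did not pass, with a median of −0.16. The beta chain Csf2rb, shared by the receptors for GM-CSF and IL-3, rose to 11432 ± 376 in KO, against 3753 ± 583 in WT (log2 fold change 1.62 ± 0.12, adjusted p = 0.000428). Its near-identical neighbour Csf2rb2 (1.18) rose as well, and reads may be split between the pair. The GM-CSF receptor alpha chain Csf2ra rose by 0.69 on the log2 scale. Flt3, the receptor behind dendritic cell production, fell to 33.4% of its WT level, and Kit, which binds stem cell factor, to 63.4%, with an adjusted p of 0.0655 for Kit when no intensity trend was used. Csf1r, the monocyte receptor for M-CSF, and Csf3r, the granulocyte receptor for G-CSF, named after their values were seen, did not pass. Csf1r had 2681, 6469 and 4426 in KO libraries and 6051, 7964 and 6285 in WT libraries (−0.66, adjusted p = 0.144), lowest in the KO library that was lowest in Irf8. Without that library, KO replicate 1, the Csf1r value was −0.33 (adjusted p = 0.28), and without KO replicate 2 it was −0.96 (adjusted p = 0.023). Csf3r averaged 13833 ± 3096 in KO and 12018 ± 982 in WT (0.18, adjusted p = 0.489), with 0.37 without KO replicate 1, 0.04 without KO replicate 2 and −0.02 under quantile normalization.

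Granulocyte genes downstream of C/EBP factors and GFI1 rose in 9 of 16 and fell in 1, with a median of 0.77. Cebpe is itself 1 of the 9. The count of 9 was 5 without KO replicate 3, 5 without WT replicate 3, 5 under quantile normalization and 4 with no intensity trend. The primary granule genes Mpo (0.37) and Elane (0.40) lost their calls in all 4 of these settings, as did S100a8 and S100a9. Quantile normalization set Mpo and Elane equal in the 2 groups (log2 fold changes of 2.4e-16 and 2.12e-15). Their loss in that setting therefore does not bear on their rise. Ms4a3, a marker of granulocyte-monocyte progenitors, rose to 284% of its WT level, with 96019 ± 12190 in KO and 33779 ± 2715 in WT. The primary granule protease Ctsg rose by 1.39 and Lcn2 by 2.76 on the log2 scale. Lcn2 had 11071, 5467 and 9008 in KO libraries and 1038, 1710 and 997 in WT libraries, ordered in KO as Cebpe was. On the same list Camp (−0.655), Ltf (−0.098), Ngp (0.066), Mmp8 (0.725) and Mmp9 (0.835) did not pass (limma adjusted p of 0.072 to 0.933). The lysozyme gene Lyz2 fell to 40.5% of its WT level. Of the mature neutrophil markers, 2 of 10 rose and 2 fell, with sums of 117604 to 256936 in KO libraries and 88317 to 145235 in WT libraries. The 2 that fell were Retnlg (−1.87, limma adjusted p = 0.000551) and Padi4 (−1.21, adjusted p = 0.00585), and both kept their calls in all 18 alternatives. The 2 that rose were the calprotectin genes S100a8 and S100a9 (adjusted p = 0.046 and 0.0283). The count of risen markers was 0 without KO replicate 3, WT replicate 1 or WT replicate 3, and 1 without KO replicate 1 (Cxcr2 in their place) or without WT replicate 2 (S100a9). Camp, Ngp, Ltf, Mmp9, S100a8 and S100a9 are on both lists, and the part of mature neutrophils in the rise of Cebpe was not tested.

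Genes downstream of IRF8 and KLF4 split, with 3 of 16 higher (7 without WT replicate 2), 4 lower and a median of −0.08. Cd74, the chaperone of class II antigen presentation, fell to 11.3% of its WT level (log2 fold change −3.13 ± 0.29, adjusted p = 0.000804), and the protease gene Ctss fell to 64.0%. The endotoxin co-receptor gene Cd14 rose by 1.32 on the log2 scale. Cybb, the catalytic subunit of the phagocyte oxidase, rose to 15524 ± 2030 in KO, against 6528 ± 1750 in WT (1.28 ± 0.20, adjusted p = 0.00468). Fcgr1, a high-affinity antibody receptor, rose by 1.60 (adjusted p = 0.0495) but held that call only when WT replicate 2 was the library left out (adjusted p up to 0.145 without the others). B lineage markers fell in 2 of 7 tested and rose in 0, a share near the 23.3% of all genes that passed. Their sums were 5955 to 7193 in KO libraries and 31259 to 54146 in WT libraries. Pax5 and Ebf1 were at 0 in every library. T and NK markers fell in 7 of 9 (4 without WT replicate 3), and Nkg7 was the 1 that rose. That call was lost without KO replicate 3 (adjusted p = 0.0646), with no intensity trend and under quantile normalization. The summed level of the T and NK markers was higher in KO, at 41773 to 44082 in KO libraries and 34682 to 35859 in WT libraries. The part of B, T and NK cells in these results was not tested.

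**Figure D5:**
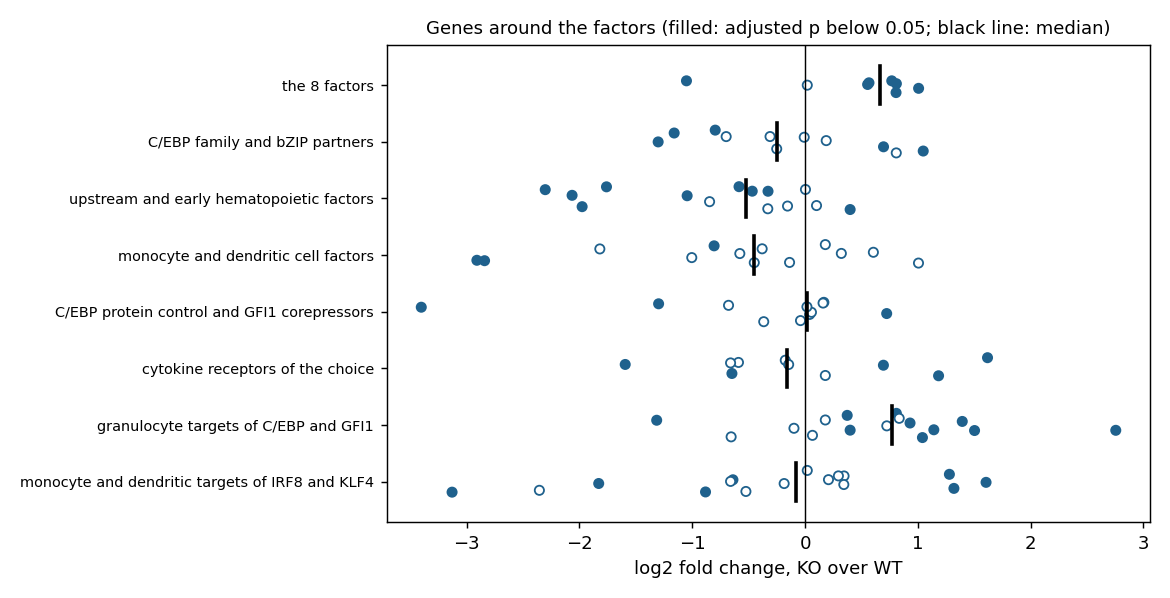
Log2 fold change of KO over WT (horizontal axis) of each tested gene in the 8 factors and 7 related lists, filled where the adjusted p was below 0.05, with a black line at each median. The 8 factors and the granulocyte genes have medians of 0.67 and 0.77, and early hematopoietic factors stand at −0.53.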

How the data were processed

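Trizol was used for total RNA and a VAHTS mRNA-seq v2 kit for library preparation, per the labels' protocols. The submitters' processing notes list HISAT2 and StringTie as tools and both mm8 and mm10 as builds, with no version or role for any of them. The counting program and the handling of strand are unknown from those sources. For each library, the file as deposited gives 1 signal value per gene. Every value was a whole multiple of 1 step per library (100% within 0.01 of a read), so they are read counts divided by a size factor, and whole reads were recovered.

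KO was compared with WT using limma 3.58.1 in R 4.3.3 on log2(value + 1) with an intensity trend, keeping genes that reached 1 in 3 or more of the 6 libraries. P-values are two-sided and Benjamini-Hochberg adjusted over 20136 genes, with 0.05 as the threshold. Fold changes on this scale are understated for low genes. Ratios were tested by exact permutation (scipy 1.17.1). The main limma fit was tested on simulated counts with an assumed spread, for the direction and size of large changes. The 18 alternatives include edgeR 4.0.16, which called 2075 genes higher and 2496 lower, and DESeq2 1.42.0, which called 2430 and 2964. Exon lengths and overlaps come from GENCODE M21 (GRCm38), where all 49035 identifiers of the same version had the same start and end. Replicate pairs differed beyond sampling noise (chi-square per degree of freedom 41.0 to 66.9 in 5 pairs and 87.7 between KO replicates 1 and 2). Named from each list were up to 4 genes with the smallest p and any called gene that went against the majority of the list's called genes. The members and lists were chosen with earlier results of these data known. Of the listed symbols, Cop1 was read under its older name Rfwd2. The 8 factors had 109 to 20702 reads per library, with no molecular identifiers named.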

Additional observations from a re-analysis of the deposited data

How the results depend on the processing

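Over 18 alternatives, Cebpb, Cebpd, Gfi1 and Irf8 kept their direction and their call, with log2 fold changes of 0.86 to 1.14, 0.54 to 0.61, 0.63 to 0.84 and −1.23 to −0.87. Without the intensity trend 3 factors rose in place of 6, since Cebpa, Cebpe and Spi1 had adjusted p of 0.0867, 0.0598 and 0.0517, and 1071 genes were higher over all genes. With library quality weights 3198 genes were higher. Leaving out 1 library gave 993 to 1787 higher and 1565 to 2604 lower genes, with fewer samples in each fit. Quantile normalization moved the median of all genes by 0.10, to 0.08, and relative to that shift Spi1 stood at 0.26 and Irf8 at −1.33. The replicate number as a block gave 1705 higher and 2157 lower genes and the same calls for the 8 factors. Same-numbered libraries did not deviate together over all genes (correlations of −0.023 to −0.011). No strong effect shared by number was seen, but such correlations cannot show that the samples were unpaired. The 9 ratios, run only with the other pseudocount, with the replicate block and without each library in turn, kept their sign in these 8 alternatives, and with the replicate block the exact sign-flip permutation test cannot go below p = 0.25. Klf4 had the fewest reads of the 8 factors, 109 to 365 per library, and its SD among WT libraries was 58.5% of their mean.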
